A study of Mus musculus with 6 samples.

Results

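The core loop of the circadian clock was followed in the mouse cochlea through 10 genes: the repressors Per1, Per2, Per3, Cry1, Cry2, Nr1d1 and Nr1d2 and the activators Arntl, Clock and Npas2. They were selected by gene symbol in the platform's annotation, with the further condition that raw signal exceeded the array's 40th percentile on 3 or more of 6 arrays. Of their 13 probes 11 met it, which left 9 of the 10 genes, among 16143 named genes and 27189 features tested in all. Only signal level chose the probes, whichever the genotype, but the genes themselves were picked with earlier results of these arrays known. RNA came from cochleae of female mice aged 7 months, either wild type, Fabp7 (+/+), or knockout, Fabp7 (-/-). Each group held 3 samples, and 4 cochleae from 2 mice were combined in each, keeping the otic capsule and leaving out vestibular tissue. The strain background, the design of the null allele and the time of day at which the tissue was taken are not given in the sources used here. Transcripts of these genes follow the time of day in mouse tissues, so the genotype differences, the clock index and the correlations between pools below cannot be told apart from differences in collection time. Each sample was hybridised to 1 one-colour Agilent array.

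In the clock of mammals, ARNTL (also called BMAL1) pairs with CLOCK or its paralog NPAS2 and activates genes that carry E-boxes. Among these genes are the Period and Cryptochrome repressors, whose proteins return to the nucleus and inhibit the activators, and Nr1d1 and Nr1d2, which encode the nuclear receptors REV-ERB alpha and beta. The REV-ERB proteins silence Arntl and Npas2 through elements that they share with the ROR receptors, so that in mouse peripheral tissues Arntl and Npas2 peak when Per and Nr1d transcripts are low. The cochlea is known to hold such a clock of its own, with Per2 among its rhythmic genes.

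The promoter windows of 3 members are printed: Per3 because it had the largest difference among the members, Arntl because its transcript ran most closely against Nr1d2, and Per1 because its window held both an E-box and a D-box. RefSeq windows on GRCm38.p6, each from 250 bases before to 50 bases after a transcript start, were found for 9 members (13 windows; Per2 had no entry). They are written 5′ to 3′ on the gene's strand, in lower case with the motif matches in capitals. Searched on both strands were the E-box CACGTG, the variant E-box CACGTT, the cAMP response element TGACGTCA, the D-box as TTATGTAA, TTATGCAA or TTACGTAA, which binds the DBP family and NFIL3, the core site AGGTCA of ROR and REV-ERB, and AAAGTAGGT, a start of such an element that was added after the Arntl window had been read and that can overlap AGGTCA.
Per3, chr4:151044616-151044915, minus strand: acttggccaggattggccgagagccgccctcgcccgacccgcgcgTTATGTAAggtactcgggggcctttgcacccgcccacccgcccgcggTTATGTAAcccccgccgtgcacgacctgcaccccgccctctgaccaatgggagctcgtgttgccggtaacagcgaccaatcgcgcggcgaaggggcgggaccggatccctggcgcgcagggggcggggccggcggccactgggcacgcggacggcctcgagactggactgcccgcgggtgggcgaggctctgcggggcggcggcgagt
Per1, chr11:69098699-69098998, plus strand: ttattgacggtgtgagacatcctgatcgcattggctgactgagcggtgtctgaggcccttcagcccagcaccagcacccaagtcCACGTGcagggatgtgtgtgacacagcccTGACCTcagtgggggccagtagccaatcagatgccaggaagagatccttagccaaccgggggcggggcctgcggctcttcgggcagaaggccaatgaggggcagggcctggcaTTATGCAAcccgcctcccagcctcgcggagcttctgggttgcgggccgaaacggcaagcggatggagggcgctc
Arntl, chr7:113207261-113207560, plus strand: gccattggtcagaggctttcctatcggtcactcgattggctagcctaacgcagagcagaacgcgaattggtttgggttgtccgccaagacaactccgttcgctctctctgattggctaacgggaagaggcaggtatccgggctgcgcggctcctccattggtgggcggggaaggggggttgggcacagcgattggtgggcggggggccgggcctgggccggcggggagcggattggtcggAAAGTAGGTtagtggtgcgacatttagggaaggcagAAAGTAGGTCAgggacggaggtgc

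The Per3 window held the D-box TTATGTAA at 2 places, with first bases at −205 and −158 from the start site. Of all 32851 windows in the table, 0.938% held TTATGTAA and 0.0213% held it at 2 or more places. The printed Per1 window held an E-box at −166, the D-box form TTATGCAA at −24 and, on the opposite strand, AGGTCA at −137. The other Per1 window, chr11:69099902-69100201, held none of the motifs searched. CACGTG was found in 7.15% of all windows, TTATGCAA in 0.743% and AGGTCA in 16.3%. The Arntl window held AAAGTAGGT at −10 and again at 27 bases into the transcript, where it ran into AGGTCA, first base 32. AAAGTAGGT was found in 0.183% of all windows. The other members' windows held CACGTT in Cry2 and Nr1d1, CACGTG and CACGTT in Cry1, and AGGTCA in Nr1d2 and in a window of Clock. The further windows of Clock and that of Npas2 held none of the motifs searched. These matches describe letters in a window, and no binding was measured.

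The 75th percentile of the raw signal was 677, 665 and 668 on the wild-type arrays and 610, 621 and 581 on the knockout arrays. Every knockout array was thus somewhat dimmer, and raw signals given below carry this difference, which the scaling takes out. Correlations between arrays over all features were 0.988 to 0.994. Fabp7, the targeted gene, read 2674, 1554 and 1860 on the wild-type arrays and 10.9, 3.75 and 3.43 on the knockout arrays (−8.42 ± 0.47, SE, limma adjusted p = 0.0610). Defining markers of the cochlea were measured, with 6 of 6 hair cell genes, 5 of 5 genes of the otic epithelium, 5 of 5 of the spiral ganglion and 4 of 5 of the stria and lateral wall past the filter. Genes of skeletal muscle differed most between arrays. The mean centred log2 signal of 4 of them ranged from −1.66 to 0.71 in wild type and from −1.38 to 3.70 in knockout, and knockout array 2 held the 3.70. The same score of 6 hair cell genes was −0.47 on wild-type array 2, against −0.06 and 0.08 on the other wild-type arrays and 0.02 to 0.27 in knockout. The score of 4 bone genes was 0.34 on wild-type array 2, against −0.14 to 0.05 on the other arrays. All 6 hair cell genes lay higher in knockout, 2 of them (Ocm and Slc26a5) at an unadjusted limma p under 0.05 (3.04% of all features). Slc26a5 was dim, at raw signals of 16.8 to 44.7, and was under the filter level on wild-type array 1. For Myo7a, Tmc1 and Pou4f3, knockout arrays 1 and 2 lay below wild-type arrays 1 and 3. The sign of those differences thus rests on wild-type array 2, where these genes read lowest. All 4 bone genes lay lower, 0 of them at an unadjusted limma p under 0.05 (2.66%). Because whole cochleae were measured, fewer cells of a type and less RNA per cell cannot be told apart.

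Per2 and Per3, the Period genes with the larger differences, were brighter in every knockout pool. In raw signal, Per2 read 202, 180.0 and 165 on the wild-type arrays and 253, 323 and 250.4 on the knockout arrays. All 3 knockout values lay above all 3 wild-type values. On the scale used for tests, log2 signal minus the 75th percentile of the array, Per2 averaged −1.88 ± 0.14 for wild-type and −1.14 ± 0.17 for knockout arrays (SD, n = 3 each). The difference was 0.74 ± 0.12 (SE of the limma fit), or 1.67-fold, with a 95% interval from 0.45 to 1.03. Its limma p was 0.00086 before and 0.534 after Benjamini-Hochberg adjustment over all 27189 features, so that it did not pass the threshold of 0.05. By unadjusted p, Per2 stood 15th among named genes.

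Per3 read 224, 161 and 214 on the wild-type arrays and 296, 393 and 280.0 on the knockout arrays, again with no overlap. The scaled log2 signal averaged −1.76 ± 0.25 against −0.92 ± 0.22 (SD, n = 3 each), and the difference of 0.84 ± 0.17 (SE), or 1.80-fold, was the largest among the 9 members. Its limma adjusted p was 0.562 and its 95% interval ran from 0.43 to 1.26. Knockout array 2, on which muscle genes were highest, also held the highest signal of all 3 Period genes. Without that array the differences were 0.64 for Per2 and 0.72 for Per3.

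Per1, the Period gene that also answers quickly to glucocorticoids and cAMP, showed no such separation. It read 9393, 4496 and 7204 on the wild-type arrays and 8087, 9756 and 6817 on the knockout arrays. The lowest value was that of wild-type array 2, and wild-type array 1 lay above knockout arrays 1 and 3. The difference was 0.42 ± 0.28 (SE), with a 95% interval from −0.25 to 1.10 (limma adjusted p = 0.866), and it was 0.14 without wild-type array 2. A second Per1 probe was under the 40th percentile on all 6 arrays, at raw signals of 7.59 to 17.2, and was not tested.

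**Figure D1:**
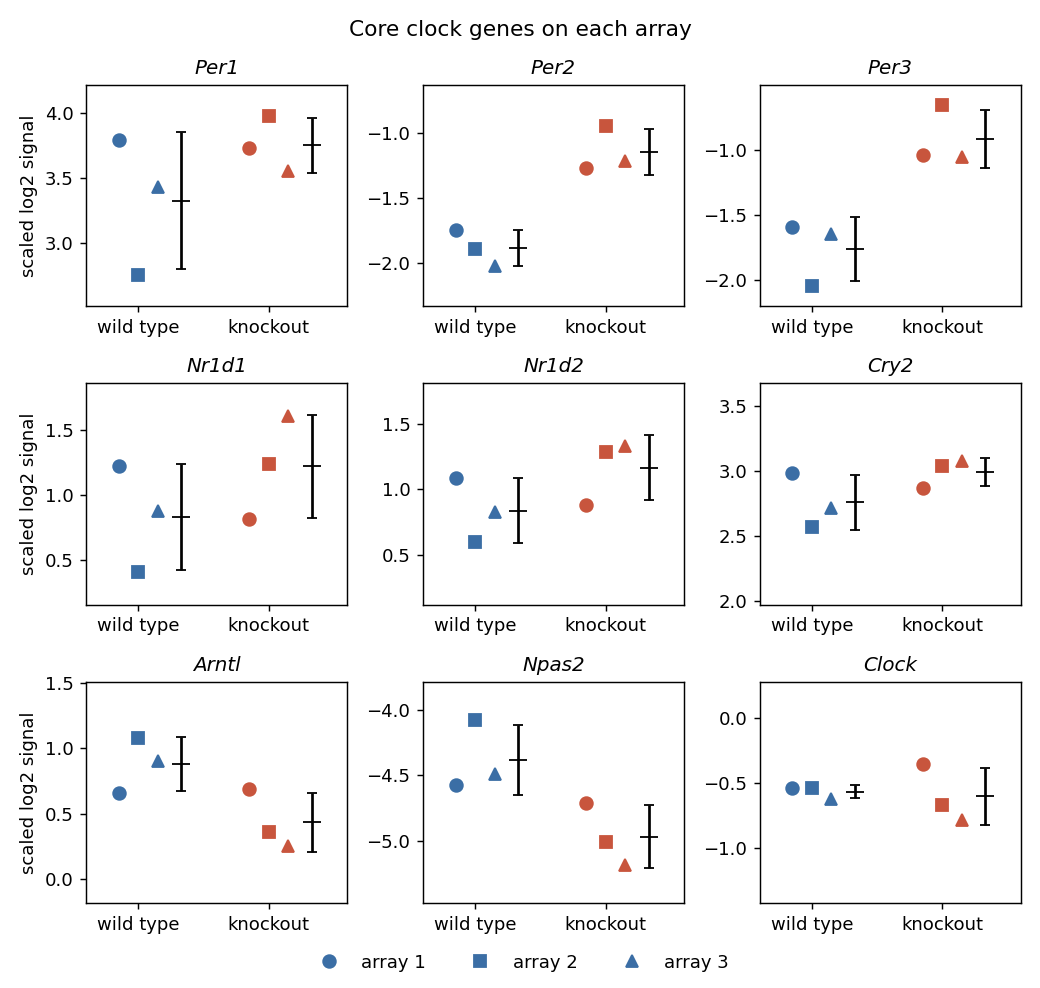
Scaled log2 signal (log2 raw signal minus the array's 75th percentile) of the brightest probe of the 9 measured core clock genes, with 1 point per array and the mean ± SD of each genotype (n = 3) in black; every panel spans the same height. The groups do not overlap for Per2, Per3 and Npas2, while the lowest Per1, Nr1d1, Nr1d2 and Cry2 values all come from wild-type array 2.

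The REV-ERB genes spread widely within each genotype, and their groups overlapped except by the second Nr1d2 probe. Nr1d1 read 1577, 883 and 1224 on the wild-type arrays and 1075, 1461 and 1769 on the knockout arrays. Both groups spanned a similar range, with knockout array 1 below wild-type arrays 1 and 3. The difference was 0.39 ± 0.27 (SE), with a 95% interval from −0.29 to 1.06 (limma adjusted p = 0.866). It became 0.17 without wild-type array 2, 0.19 without knockout array 3 and 0.59 without knockout array 1.

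Nr1d2 read 1440, 1004 and 1186 on the wild-type arrays and 1124, 1512 and 1466 on the knockout arrays. By this probe, the brighter of the pair for Nr1d2, knockout array 1 again lay among the wild-type values. The difference was 0.33 ± 0.18 (SE, limma adjusted p = 0.866), which became 0.21 when wild-type array 2 was left out. The other Nr1d2 probe gave scaled log2 signals of 0.81, 0.32 and 0.52 on the wild-type arrays and 0.87, 1.00 and 1.04 on the knockout arrays. Its groups did not overlap, with a difference of 0.42 ± 0.14 (SE) at an unadjusted limma p of 0.0218 (adjusted over all features, 0.800). The SD within genotypes, pooled over both groups, was 0.40 for Nr1d1 and 0.25 for Nr1d2 on the log2 scale. For comparison it was 0.40 for Per1, 0.24 for Per3, 0.16 for Per2 and 0.14 for the median of all features. Per1 and Nr1d1 thus lay at percentiles 90.5 and 90.5 of all features by this spread, and Per2 at percentile 53.8.

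The Cryptochromes encode the repressors that bind the activator pair most tightly. Cry2 read 5374, 3963 and 4388 on the wild-type arrays and 4471, 5092 and 4893 on the knockout arrays. Wild-type array 1 was the brightest of all, although after scaling it lay below knockout arrays 2 and 3. The difference of 0.23 ± 0.13 (SE, limma adjusted p = 0.866) stood beside 0.25 ± 0.15 (SE) by a second probe, and it was 0.14 without wild-type array 2. The single Cry1 probe gave raw signals of 3.18 to 4.07 and lay at percentiles 9.64 to 11.5 of its arrays, under the filter level on all 6, so that nothing is reported on Cry1 transcripts. Just above that level stood Npas2, at percentiles 39.2 to 47.2.

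The activators Arntl and Npas2 went the other way from the Period genes. Arntl read 1069, 1404 and 1250.2 on the wild-type arrays and 983, 797 and 691 on the knockout arrays. The raw values did not overlap, but after scaling wild-type array 1 (0.66) lay just under knockout array 1 (0.69). Arntl averaged 0.88 ± 0.21 on wild-type and 0.43 ± 0.23 on knockout arrays (SD, n = 3 each). The difference was −0.45 ± 0.16 (SE), with a 95% interval from −0.83 to −0.06 and an unadjusted limma p of 0.0301 (adjusted over all features, 0.824). Wild type was thus 1.36-fold higher.

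Npas2, which can stand in for Clock as the partner of ARNTL, was dim, at raw signals of 28.4, 39.5 and 29.7 on the wild-type arrays and 23.3, 19.3 and 16.0 on the knockout arrays. The groups did not overlap, and the value of knockout array 3 lay under the 40th percentile of its array. Its difference was −0.59 ± 0.18 (SE) with an unadjusted limma p of 0.0173 (adjusted over all features, 0.792), and −0.55 when low signals were lifted to the array's 40th percentile. Clock itself, the least rhythmic of the activators in most mouse tissues, read 465, 458 and 434 on the wild-type arrays and 476, 390.3 and 336 on the knockout arrays. Its groups overlapped, with a difference of −0.04 ± 0.12 (SE, limma adjusted p = 0.963) and an interval from −0.34 to 0.26.

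Counted over the 9 measured genes, 6 lay higher and 3 lower in knockout, and 0 passed limma's adjusted threshold, as did 0% of all features. At an unadjusted limma p under 0.05 there were 2 higher (Per2 and Per3), against 3.04% of all features, and 2 lower (Arntl and Npas2), against 2.66%. These counts moved with the settings: 5 members were higher (Per1, Per2, Per3, Cry2 and Nr1d2) without wild-type array 1, and the same 5 with array weights. Averaging the probes of a gene, or leaving out knockout array 1, gave 3 higher (Per2, Per3 and Nr1d2). Arntl was above an unadjusted p of 0.05 without any 1 of wild-type arrays 2 and 3 and knockout arrays 2 and 3, and with the replicate number as a block, and Npas2 was without knockout array 3. Per2 and Per3 were under it in every setting tried. By the probe that stands for each gene, the groups did not overlap, with knockout above, in 2 members and in 8.08% of all features, and with knockout below in 1 member and in 4.27%. The median absolute difference was 0.42 for the members and 0.09 for all features, whose median signed difference was 0.03. Members were picked with these differences known, so the counts describe the genes and do not test them as a set.

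**Figure D2:**
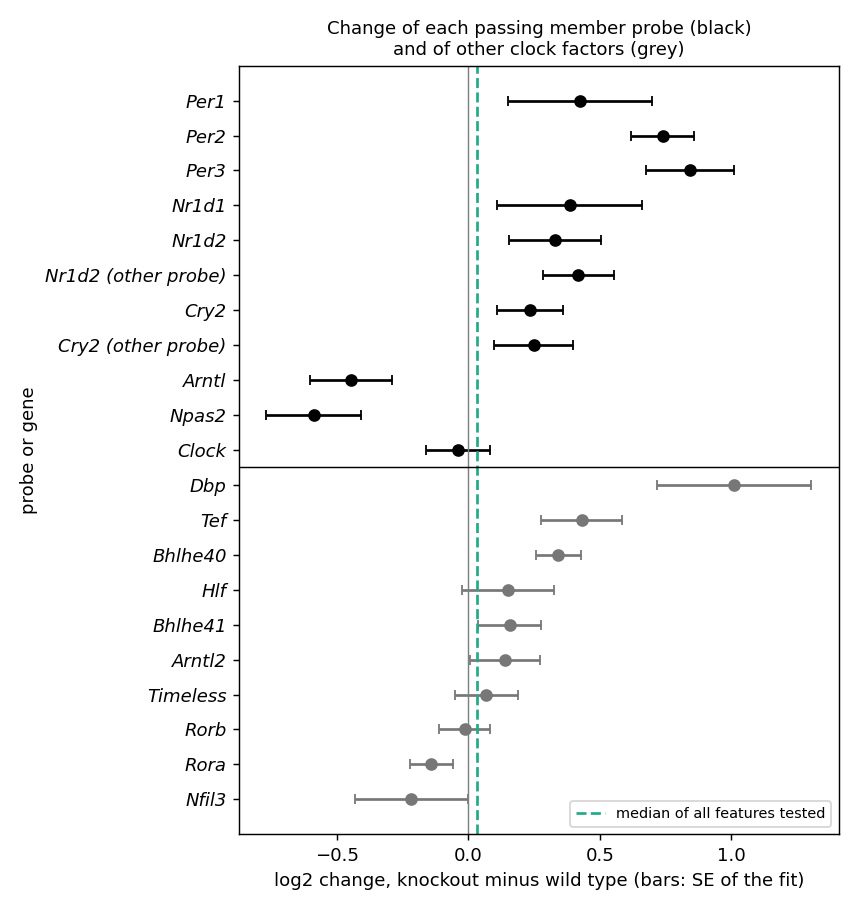
Log2 difference, knockout minus wild type, of the 11 member probes past the filter (black) and of 10 other clock factors (grey); bars are the SE of the limma fit over all features and the dashed line is the median of all features, 0.03. Both probes of Nr1d2 and of Cry2 lie on the same side of 0, and Dbp has the largest difference plotted, 1.01.

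The members were next read together, as the position of each pool between both limbs of the loop. A clock index was formed per array as the mean centred log2 signal of Per1, Per2, Per3, Nr1d1 and Nr1d2 minus that of Arntl, Npas2 and Clock. It was −0.04, −0.93 and −0.38 in wild-type arrays 1, 2 and 3 and 0.01, 0.67 and 0.68 in knockout arrays 1, 2 and 3. The order from the Arntl side to the Per side was therefore wild-type arrays 2, 3 and 1 and then knockout arrays 1, 2 and 3. Wild-type array 1 and knockout array 1 were neighbours, 0.05 apart, whereas the wild-type arrays spanned 0.89 and the knockout arrays 0.67. Only Per2, Per3 and the dim Npas2 (centred at 0.10 and −0.04 on these arrays) placed knockout array 1 nearer the Per side. Per1, Nr1d1, Nr1d2, Arntl and Clock placed wild-type array 1 nearer that side, so the order of this pair hangs on which genes enter the index. Since the members' genotype differences enter the index, its split by genotype is a description and carries no test. The array order was not particular to clock genes. Pearson r with the index was 0.92 for the hair cell gene Ocm, and 0.91 and 0.90 for the lateral wall genes Kcnq1 and Esrrb. Other genes of those lists followed it less, with 0.48 for Myo7a and −0.17 for Kcnj10.

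Single members did not all follow that order. Nr1d1, Cry2 and the brighter Nr1d2 probe placed knockout array 1 among the wild-type arrays, whereas the other Nr1d2 probe placed it above them (0.87 against at most 0.81), and Per2 and Per3 placed wild-type array 1 with the other wild-type arrays. On those 2 neighbouring arrays Per2 was −1.74 in wild type and −1.27 in knockout, and Per3 was −1.60 and −1.04. Arntl differed there by less, at 0.66 and 0.69. Clock was highest on knockout array 1, at −0.36.

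**Figure D3:**
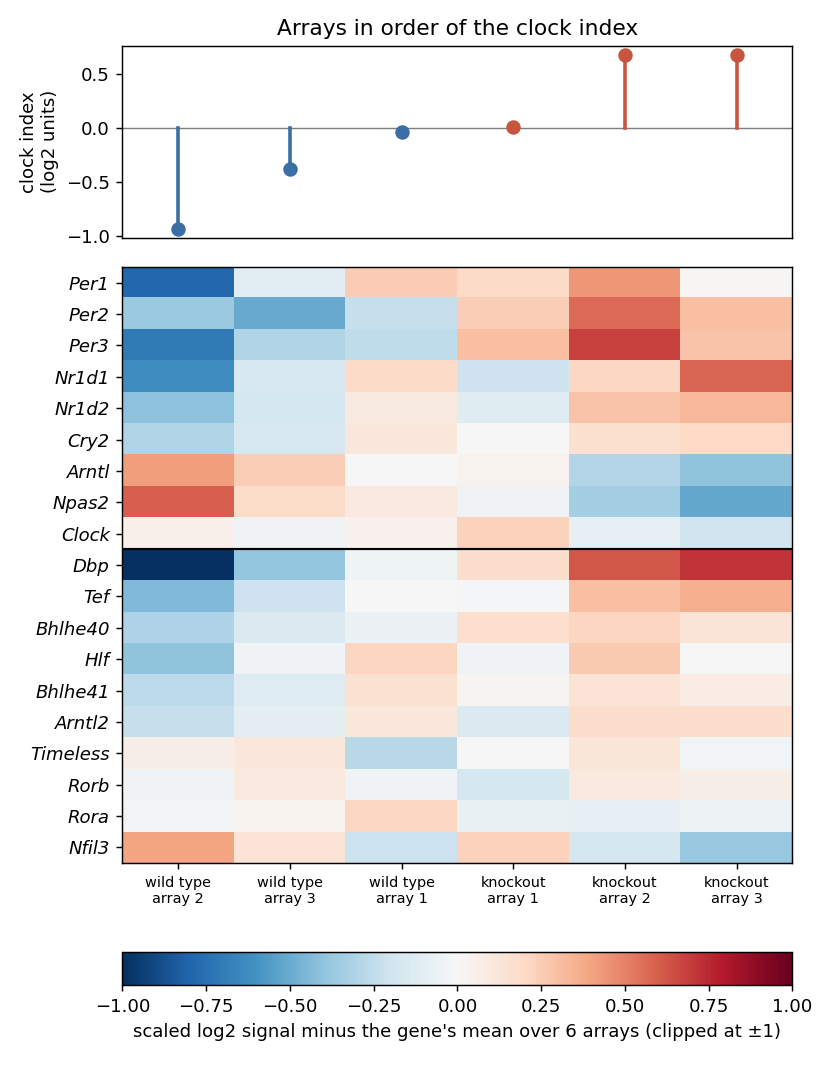
Top, the clock index of each array in log2 units; bottom, the scaled log2 signal of each gene minus its mean over 6 arrays, with arrays in order of the index, members above the line and other clock factors below it. Wild-type array 2 (index −0.93) holds the lowest Per1, Per3, Nr1d1, Nr1d2, Cry2, Dbp and Tef signals and the highest Arntl and Npas2 signals, and knockout array 3 (0.68) the lowest Arntl and Npas2 signals.

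Pairwise relations over the 6 pools were computed for all 36 pairs of the 9 genes. The 10 pairs within the Per and Nr1d limb all had positive Pearson correlations, from 0.56 to 0.96, as did the 3 pairs among the activators (0.52 to 0.98). The 15 pairs between the limbs were all negative, from −0.97 to −0.06, and those nearest 0 held Clock. By exact two-sided permutation, 17 of the 36 pairs had a p under 0.05 and 9 after Benjamini-Hochberg adjustment over the 36; with Spearman's rho these were 12 and 3. The points share their arrays and scaling factors. Members were picked with their genotype differences known, and the permutation ran over both genotypes. These p-values therefore describe the pairs and do not test the members as a set. The shares of such signs and p-values among pairs of other genes were not computed.

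Among pairs of members, the most negative r was between Nr1d2, a REV-ERB gene, and Arntl. Such opposition to Arntl was not limited to REV-ERB genes. Tef, a D-box activator and not a member, had r = −0.996 with Arntl, and Cry2 had rho = −1 with Arntl, as Nr1d2 did. Whether REV-ERB proteins acted on Arntl in these pools was not tested. Nr1d2 and Arntl had r = −0.97 (exact permutation p = 0.00139, the smallest 6 arrays can give, adjusted 0.025) and rho = −1 (exact p = 0.00278, adjusted 0.0333), and r was −0.93 without wild-type array 2 and knockout array 3. With the mean of each genotype taken out, the correlation of their deviations was −0.99, so that the opposition was present among pools of 1 genotype as well. For Nr1d1 and Arntl, r was −0.92 (exact permutation p = 0.00972, adjusted 0.0389) with rho = −0.94 (exact p = 0.0167, adjusted 0.0667). It was −0.71 without the same 2 arrays and −0.97 for the deviations. Nr1d1 and Nr1d2 went together at r = 0.96 (exact permutation p = 0.00556, adjusted 0.0333), rho = 0.94 (exact p = 0.0167, adjusted 0.0667), 0.91 without those arrays and 0.96 for the deviations.

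Arntl and Npas2, both targets of the REV-ERB receptors, had r = 0.98 (exact permutation p = 0.00278, adjusted 0.025), rho = 0.94 (exact p = 0.0167, adjusted 0.0667), 0.94 without wild-type array 2 and knockout array 3 and 0.94 for the deviations. Cry2 followed the Nr1d genes, with r = 0.97 to Nr1d2 (exact permutation p = 0.00139, adjusted 0.025) and −0.95 to Arntl (exact permutation p = 0.00278, adjusted 0.025). Their rho values were 1 and −1 (exact p = 0.00278 each, adjusted 0.0333), r without the 2 farthest arrays was 0.91 and −0.87, and the deviations gave 0.94 and −0.93.

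The Period genes were tied less closely to the rest once genotype was taken out. Per2 and Per3 had r = 0.94 (exact permutation p = 0.0181, adjusted 0.0542) and rho = 0.89 (exact p = 0.0333, adjusted 0.100), and r was 0.97 without wild-type array 3 and knockout array 2, whereas the correlation of their deviations was 0.57. For Per2 and Arntl, r was −0.84 (exact permutation p = 0.0444, adjusted 0.0971), rho was −0.83 (exact p = 0.0583, adjusted 0.117), r without those arrays was −0.79, and the deviations gave −0.50. For Per2 and Npas2, r was −0.82 (exact permutation p = 0.0458, adjusted 0.0971), rho was −0.89 (exact p = 0.0333, adjusted 0.100), r without those arrays was −0.88, and the deviations gave −0.25. Per1 and Per3 were the exception, at 0.81 (exact permutation p = 0.0458, adjusted 0.0971; rho = 0.83, exact p = 0.0583, adjusted 0.117) over all values and 0.90 for the deviations, but r was 0.16 without wild-type array 2 and knockout array 2, so that this relation rests on those arrays. Whether the correlations of different pairs differ from each other was not tested.

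**Figure D4:**
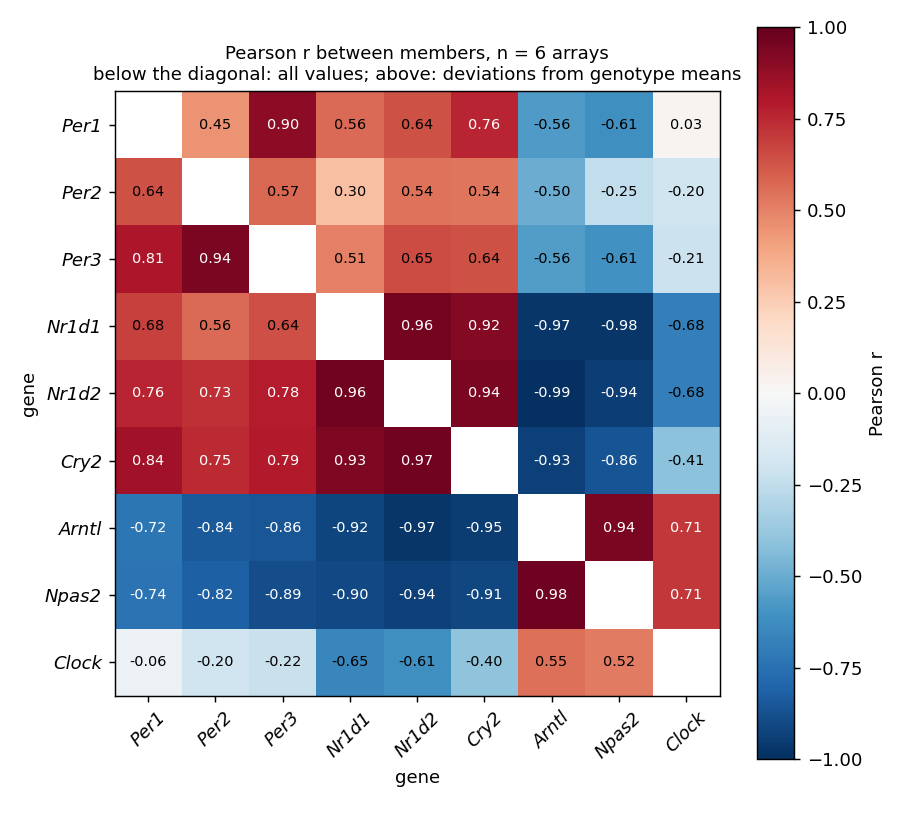
Pearson r for each pair of members over 6 arrays, below the diagonal from all values and above it from deviations from each genotype's mean. The block of Nr1d1, Nr1d2, Cry2, Arntl and Npas2 keeps absolute values of at least 0.86 on both sides of it, whereas Per2 with Per3 goes from 0.94 below to 0.57 above. Both sides use all 6 arrays. Without wild-type array 2 and knockout array 3, Nr1d1 with Npas2 went from −0.90 to −0.47.

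Other genes of the clock were read from lists of 12 further clock factors, 12 kinases and ubiquitin ligases that act on PER and CRY proteins, and 6 clock-driven outputs. Of 10 factors past the filter 7 lay higher and 3 lower in knockout, with a median difference of 0.14 and 0 past the adjusted threshold. At an unadjusted limma p under 0.05, 3 were higher (3.04% of all features) and 0 lower (2.66%). Dbp, a D-box activator driven by E-boxes, read 21936, 10437 and 16982 on the wild-type arrays and 22912, 31869 and 31977 on the knockout arrays. Its lowest value was on wild-type array 2, and its groups did not overlap (1.01 ± 0.29, SE, limma adjusted p = 0.766). Tef, a second D-box activator, differed by 0.43 ± 0.15 (SE) with overlap, and Bhlhe40, a repressor that competes for E-boxes, by 0.34 ± 0.09 (SE) with none. The activator Rora differed by −0.14 ± 0.08 (SE), with knockout below and no overlap. Of all features, 8.08% had knockout above without overlap, as Dbp and Bhlhe40 did, and 4.27% had knockout below.

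Tef mirrored Arntl over the pools. Its correlation with Arntl was −0.996 (exact permutation p = 0.00139, adjusted 0.0139 over the 10 factors), with rho = −1 (exact p = 0.00278, adjusted 0.0278) and −0.99 for deviations from genotype means. Dbp gave −0.97 (exact permutation p = 0.00278, adjusted 0.0139), with rho = −0.94 (exact p = 0.0167, adjusted 0.0556) and −0.92 for the deviations. Nfil3, the D-box repressor whose gene REV-ERB silences, went with Arntl at r = 0.88 (exact permutation p = 0.025, adjusted 0.0625) and rho = 0.89 (exact p = 0.0333, adjusted 0.0833), and at 0.998 for the deviations. Without wild-type array 2 and knockout array 3 these 3 correlations were −0.998, −0.97 and 0.63. Arntl2, the paralog of Arntl, ran against it at r = −0.89 (exact permutation p = 0.0153, adjusted 0.0509) and rho = −0.94 (exact p = 0.0167, adjusted 0.0556), with −0.75 without those arrays and −0.99 for the deviations. Hlf, the third D-box activator of the DBP family, gave −0.69 (exact permutation p = 0.113, adjusted 0.161) and rho = −0.83 (exact p = 0.0583, adjusted 0.117), with −0.80 without those arrays and −0.72 for the deviations. Of the other 5 factors, 2 (Bhlhe40 and Bhlhe41) had an exact permutation p under 0.05 before adjustment and 0 after it.

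By their median, genes that act on PER and CRY proteins stood nearer 0. Of 10 past the filter 7 lay higher and 3 lower, 0 of them at an unadjusted limma p under 0.05, with a median of 0.04. The lowest p belonged to the AMP-activated kinase subunit Prkaa2 (0.17 ± 0.07, SE) and to Csnk1e (−0.19 ± 0.09), a casein kinase that phosphorylates PER. Next came Btrc (0.14 ± 0.07), a ubiquitin ligase subunit that targets PER, and Fbxl21 (0.12 ± 0.07), a ligase subunit for CRY. The groups did not overlap for Prkaa2 and Btrc, with knockout above (8.08% of all features). Nor did they for Csnk1e, with knockout below (4.27%), whereas those of Fbxl21 overlapped. Of 5 clock-driven outputs 2 lay higher at an unadjusted limma p under 0.05 (3.04% of all features) and 0 lower (2.66%). These were the protease gene Usp2 (0.46 ± 0.11, SE, limma adjusted p = 0.680) and Tsc22d3 (0.30 ± 0.07, SE, limma adjusted p = 0.600), which glucocorticoids also induce. In both, the groups did not overlap, whereas they did for the mitotic kinase gene Wee1 (0.11 ± 0.07, SE) and for Gadd45a (−0.16 ± 0.14, SE).

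Signals that act on Per1 from outside the loop were set beside it. Of the other glucocorticoid targets, Tsc22d3, given above, lay higher in knockout without overlap (8.08% of all features). It was the only one of the list at an unadjusted limma p under 0.05. The groups of Fkbp5 (0.12 ± 0.16, SE), Zbtb16 (0.22 ± 0.27) and Sgk1 (−0.02 ± 0.11) overlapped. Of 6 rapidly induced genes 6 lay lower in knockout. Fos, at −0.39 ± 0.12 (SE, limma adjusted p = 0.792), was the only one at an unadjusted limma p under 0.05 (2.66% of all features). Its groups did not overlap (knockout below, 4.27% of all features), whereas those of Junb (−0.30 ± 0.15), Fosb (−0.14 ± 0.08) and Atf3 (−0.14 ± 0.15) did. The part of these genes in the Per1 values was not tested.

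Likeness over 6 arrays is easily reached among 16142 other genes. The named genes most like Per3 were 0610010F05Rik, Gzmm and Gm5069 (r = 0.996, 0.995 and 0.995), and Per2 came 171st. Per1 came 1182nd and Nr1d1 2870th. Those most like Arntl were Crat, Serpina3b and Vps13b (r = 0.990, 0.989 and 0.988), and Npas2 came 6th. At the other end, Nr1d2 stood at place 16120 of 16142 for Arntl, whereas Per1 stood at place 14341.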

How the data were processed

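RNA of 3 wild-type and 3 Fabp7 knockout cochlear pools was labelled with Cy3, per the labels. Agilent Feature Extraction 10.7 is credited from the submitters' processing notes. For each array the deposited values were raw signal intensities, 1 per probe and unscaled, and no source used here states their background correction. They also deposited a log2 matrix, in which each column equals the log2 raw signal of its array minus a constant; its column medians lay between −3.69 and −3.55.

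Here the log2 raw signal minus the array's 75th percentile was used for 55676 probes, named through the platform's annotation (30625 with 1 gene, 25051 with none and 0 with several). A probe was kept when above its array's 40th percentile on at least 3 of the 6 arrays, and the brightest kept probe stood for a gene. A genotype contrast without covariates was fitted by lmFit and eBayes (limma 3.58.1, R 4.3.3) over all 27189 features, two-sided, with Benjamini-Hochberg adjustment; the fit was tested on simulated data. The number of arrays, 3 per group, limits the precision, and per the labels the pools of a group came from separate mice. Correlations used exact permutation over the arrays. All members were named, with up to 4 genes of each other list by unadjusted p and the 3 genes most like Per3 and Arntl. Some genes outside that rule were named as well. These were Nfil3, Arntl2, Hlf and Bhlhe41 with their correlation to Arntl, and Myo7a with its correlation to the index. Sgk1 was named to complete its list, and Myo7a and Pou4f3 for their order over the arrays. Members and lists were chosen with earlier results of these data known. The labels state no pairing of same-numbered arrays of both genotypes, and the main fit used none. Correlations of their deviations were −0.13, −0.04 and −0.14, which cannot show whether such pools were handled together. Alternatives covered scaling, source, filter, probes, low signals, spread model, weights, block and each array left out.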

Additional observations from a re-analysis of the deposited data

How the results depend on the processing

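Over 16 to 18 alternatives each, 8 of the 9 measured members kept the sign of their difference, and 0 members passed the adjusted threshold under any of them. Per2 ranged from 0.64 to 0.91, Per3 from 0.70 to 0.95, Npas2 from −0.72 to −0.44 and Arntl from −0.58 to −0.35. Clock was −0.16 without knockout array 1 and turned to 0.053 without knockout array 3, on which it was lowest. By leaving out 1 array each, Per1 ranged from 0.14 to 0.66, Nr1d1 from 0.17 to 0.59, Nr1d2 from 0.21 to 0.47 and Cry2 from 0.14 to 0.35, the lowest in each case without wild-type array 2. The number of features called lower at an adjusted p under 0.05, 0 in the main analysis, was 1 with quantile normalization, with low signals raised to the 40th percentile, with a trended robust prior and with named genes only, in each case Fabp7. With array weights 1 was called higher and 2 lower. With 1 array left out it was 0 to 2 higher and 0 to 1 lower, with 2 higher without wild-type array 2, 1 higher without wild-type array 3 and 1 lower, Fabp7, without knockout array 1. At an unadjusted p under 0.05, 827 features higher and 723 lower became 2125 and 1302 with array weights, and 499 and 413 among named genes alone; without wild-type array 1 there were 1316 higher. With the replicate number as a block, 583 were higher and 616 lower, and 0 were called after adjustment. The members' differences were the same with limma adjusted p = 0.994. The labels give these arrays nothing in common but the number. Of the 15 correlations between the limbs, 0 were above 0 in the main analysis, 1 with deviations from genotype means and 3 without the 2 farthest arrays. The clock index of each array moved by less than the SD of its group with quantile normalization and with the mean of passing probes. The same held without Clock, without Per1 and with Cry2 added. An index without Npas2, Per2 or Per3 was not among these alternatives, and Cry1 could not be added, as it did not pass the filter. Normexp correction and a slide or scan date term were not run, since the files used give 1 signal per probe and no slide. Only 3 arrays per group, and the dim signals of Npas2 and Cry1, limit what can be resolved.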
